A study of Sus scrofa with 40 samples.

Results

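SBK2, METTL21C, RFLNA, DDN and NRSN1 had the largest rise in trapezius over longissimus in muscle of Chalu black pigs. They were ranked among genes with a symbol, an edgeR adjusted p under 0.05 in that contrast and a minimum level in trapezius. Those genes come from the 11713 that passed a filter on low counts, of 21280 measured. They were chosen by that one contrast, so the difference between trapezius and longissimus is given below as a description, with no test. Messenger RNA was sequenced from 4 pork cuts: trapezius of the neck and shoulder (TM), pork belly (PB), hamstring of the hind leg (HM) and longissimus dorsi of the back (LDM), with 10 libraries per cut and 40 in all. Every pig was a male by a single sire, reared under shared conditions and fasted before slaughter. The muscle was taken from the left side soon after death and trimmed of fascia. Age and any treatment are not given, and no cut is a control. The labels number the libraries 1 to 10 in each cut without saying that a number marks an animal, so the p-values measure the spread between libraries, which may in part be technical.

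Skeletal muscle is a mosaic of slow and fast fibres. Slow fibres contract with the beta myosin heavy chain encoded by MYH7, rely on mitochondrial respiration and carry their own isoforms of the troponins and light chains, whereas fast fibres use other myosins and lean more on glycolysis. In pigs the longissimus is known as a predominantly fast, glycolytic muscle. MYH7 therefore served as the measure of slow fibre RNA in each library. In whole muscle, fewer fibres of a type and less RNA per fibre cannot be told apart.

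The 5 genes have unlike textbook roles. SBK2 is a serine/threonine kinase of the SH3 domain binding kinase family and has been little studied. METTL21C is a lysine methyltransferase of striated muscle, known in mice from slow fibres, where it methylates the chaperone HSPA8. RFLNA encodes refilin A, which binds filamins and organises actin bundles. DDN encodes dendrin, known in rodents from neuronal dendrites and from the slit diaphragm of kidney podocytes. NRSN1 encodes neurensin 1, a small membrane protein of vesicles in rodent neurons.

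All positions are on the pig genome Sscrofa11.1, as the deposited table gives them. SBK2 (ENSSSCG00000033532) lies on the minus strand of chromosome 6 from 59672295 to 59677670, and METTL21C (ENSSSCG00000031101) on the minus strand of chromosome 11 from 71010850 to 71020730. RFLNA (ENSSSCG00000035760) lies on the minus strand of chromosome 14 from 28823569 to 28841235. DDN (ENSSSCG00000000184) lies on the minus strand of chromosome 5 from 15025510 to 15029629, and NRSN1 (ENSSSCG00000021696) on the plus strand of chromosome 7 from 19007781 to 19027230. The table names 4 of the 5, while RFLNA carries no symbol there and was identified by its identifier in a reference gene table and by the position of the RefSeq gene. Each value counts reads over all exons of the gene model.

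Care is needed with the models of SBK2 and MYH7. An unnamed protein kinase model (ENSSSCG00000037140, chromosome 6, 59678268 to 59684286, minus strand) lies 597 bases from SBK2, and a single RefSeq gene, LOC100621492 (59672306 to 59689626), covers both models. Its level followed that of SBK2 closely, with a Pearson r of 0.82 after each cut mean was subtracted, but it averaged 6.82 counts per 1000000 reads (CPM) in TM, 7.67 in PB, 12.6 in HM and 0.870 in LDM, so that HM and not PB was highest. The MYH7 model (ENSSSCG00000002029, chromosome 7, 75650445 to 75709232) spans RefSeq MYH7 (75650841 to 75672908), the microRNA gene MIR208B inside it and the neighbouring gene LOC100736765 (75677666 to 75704486), and it overlaps CMTM5 (75707132 to 75709809), so its counts may hold reads of each. The mean of 7 other slow fibre genes was therefore tried in its place, and it changed none of the calls of the 5 genes.

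Total counts per library ran from 12305913 to 17735722. Over all genes tested, 36 of the 40 libraries were nearest to the mean of their own cut. TM7 and HM9 were nearest to LDM, TM3 to HM and HM6 to TM. PB1 is titled PB while its tissue field names the longissimus, and it was nearest to PB. Results that change without these libraries are given with both values.

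SBK2 was low in every longissimus library and high in most others. Its level was 0.127 CPM at the lowest, 19.3 at the median and 103 at the highest in TM, against 0.201, 0.349 and 0.573 CPM in LDM. The lowest, median and highest values were 2.44, 38.1 and 125 CPM in PB and 0.565, 8.84 and 34.4 CPM in HM. Of the 30 libraries outside LDM, 28 lay above the highest LDM library, all but TM7 and HM9, and every PB library did. Over the 10 LDM libraries only 58 reads of SBK2 were counted, 3 to 10 per library, against 4683 in TM, 7010 in PB and 1640 in HM. Libraries differed widely within the cuts other than LDM: the highest library was 51.4-fold above the lowest in PB and 60.8-fold in HM. The lowest TM library, TM7, held only 2 reads of SBK2, so no such ratio is given for TM. In PB, 6 libraries had 15.7 CPM or more, while PB1, PB4, PB9 and PB10 had 3.73 CPM or less.

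METTL21C stood far higher in a few libraries than in the rest of their cut. Its lowest, median and highest levels were 3.51, 31.4 and 434 CPM in TM, 1.80, 32.3 and 280 CPM in PB, 2.48, 44.2 and 156 CPM in HM, and 0.959, 2.72 and 4.51 CPM in LDM. The medians of the 3 cuts other than LDM were close, while single libraries stood far above them. TM5 and TM10, with 434 and 429 CPM, held 78.9% of the summed CPM of the TM libraries. Of the 30 libraries outside LDM, 25 exceeded the highest LDM library, and TM4, TM8, PB9, HM1 and HM9 did not.

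RFLNA was highest in TM by its median, followed by PB, HM and LDM. Its lowest, median and highest levels were 0.762, 43.3 and 227 CPM in TM, 14.5, 26.9 and 75.2 CPM in PB, 2.26, 14.4 and 35.2 CPM in HM, and 0.295, 1.47 and 2.64 CPM in LDM. Of the 30 libraries outside LDM, 28 lay above every LDM library, all but TM7 and HM7. The 10 PB libraries were the most even, with a log2 SD of 0.71 against 2.52 in TM, 1.52 in HM and 1.07 in LDM.

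DDN overlapped most between LDM and the other cuts. Its lowest, median and highest levels were 0.317, 3.50 and 47.2 CPM in TM, 0.745, 5.04 and 42.6 CPM in PB, 0.126, 3.66 and 68.2 CPM in HM, and 0, 0.238 and 1.97 CPM in LDM. Of the 30 libraries outside LDM 21 lay above the highest LDM library, and only 5 of the 10 TM libraries did. HM6 held 57.8% of the summed CPM of the HM libraries. LDM10 and LDM1 held 66.2% of that of LDM, where 72 reads were counted in all.

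NRSN1 had a level between 0.692 and 68.0 CPM in TM with a median of 8.82, between 0.813 and 22.4 CPM in PB with a median of 4.90, between 0.467 and 20.5 CPM in HM with a median of 7.25, and between 0 and 1.16 CPM in LDM with a median of 0.815. LDM4 had no read of it, which allows a level of up to 0.172 CPM (3 counts, counting error only). Of the 30 libraries outside LDM, 24 lay above the highest LDM library, and TM4, PB1, HM5, HM6, HM7 and HM9 did not.

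**Figure D1:**
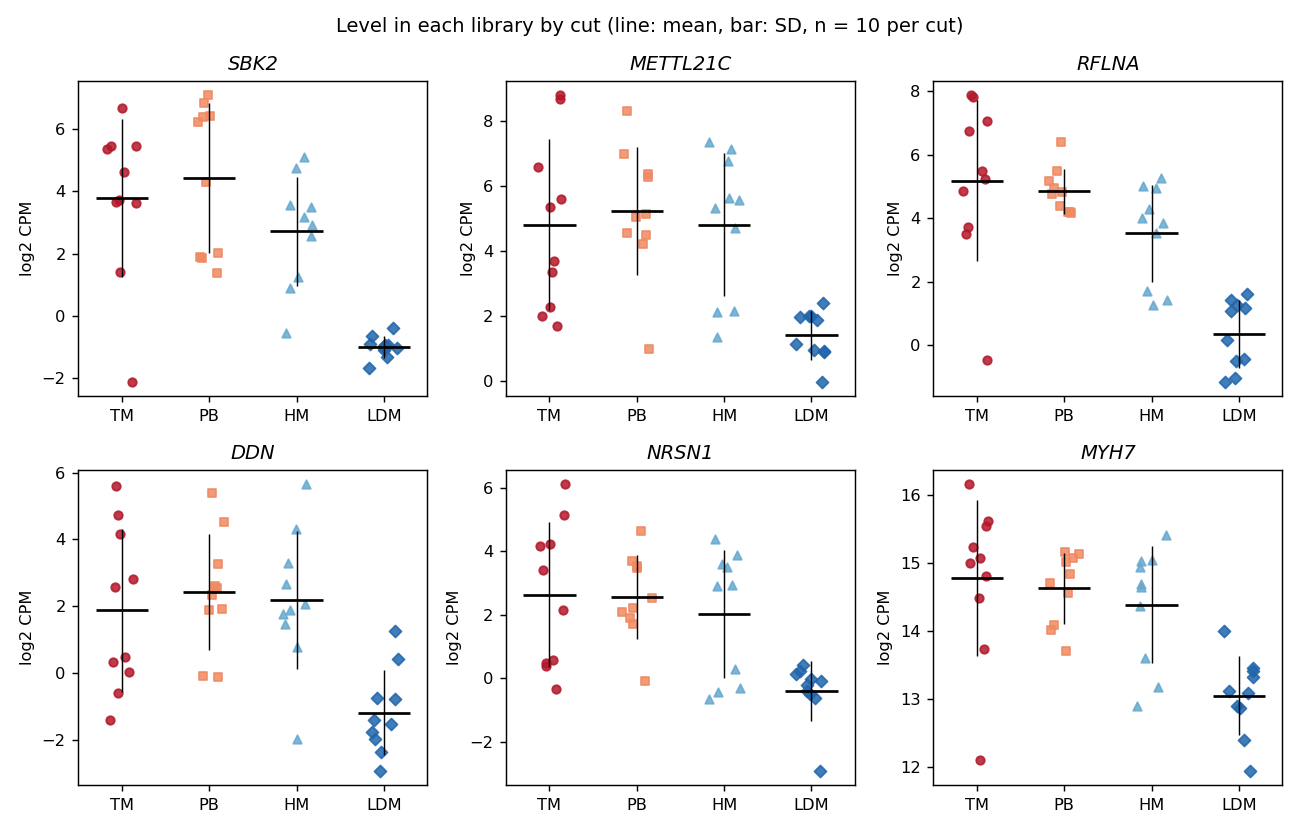
Level of each of the 5 genes and of MYH7 in every library, as log2 CPM (prior count 2), by cut from TM to LDM; points are libraries, lines are means and bars are SD over 10 libraries. LDM libraries lie lowest for SBK2, from 0.201 to 0.573 CPM, while TM7 reaches down to 0.127 CPM.

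Levels of different genes can be compared per length of the gene model. Mean FPKM (the CPM per kilobase of gene model) in TM was 40.5 ± 63.8 for METTL21C, 16.5 ± 16.6 for SBK2, 10.5 ± 10.6 for RFLNA, 7.91 ± 10.3 for NRSN1 and 3.13 ± 4.38 for DDN (SD, n = 10 each). In LDM it was 1.02 ± 0.457 for METTL21C, 0.203 ± 0.0555 for SBK2, 0.175 ± 0.110 for RFLNA, 0.352 ± 0.169 for NRSN1 and 0.131 ± 0.169 for DDN. MYH7 itself averaged 1822 ± 946 FPKM in TM and 447 ± 159 FPKM in LDM. Per length, METTL21C was thus the most abundant of the 5 in both cuts and DDN the least, and all 5 lay far below MYH7.

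The contrast that chose the genes gave log2 changes, TM minus LDM, of 6.23 ± 0.92 for SBK2, 5.82 ± 0.72 for RFLNA, 5.23 ± 0.94 for METTL21C, 4.45 ± 0.97 for DDN and 4.45 ± 0.80 for NRSN1 (fit SE, edgeR). MYH7 stood at 1.93 ± 0.33. Over the other settings tried, the lowest value was 4.79 for SBK2, 4.99 for RFLNA, 3.33 for METTL21C, 3.53 for DDN and 3.19 for NRSN1. Genes just outside the choice included ASIC1 at 3.76 and RAB30 at 3.76. In this contrast 24.7% of all genes tested were called, 11.3% higher in TM and 13.4% lower, from which nothing is read about the genes it chose. Every TM library lay above every LDM library for 0.888% of the genes tested and for none of the 5. In PB against LDM, complete separation held for SBK2 and RFLNA and for 2.32% of all genes tested. In HM against LDM, it held for none of the 5 and for 0.324% of all genes tested.

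The other cuts were set against the same LDM libraries, so these values are given side by side with no test. PB minus LDM was 7.07 ± 0.95 for SBK2, 4.69 ± 0.92 for METTL21C, 4.46 ± 0.68 for RFLNA, 4.31 ± 0.97 for DDN and 3.48 ± 0.78 for NRSN1 on the log2 scale. HM minus LDM was 4.82 ± 0.90 for SBK2, 4.37 ± 0.91 for METTL21C, 3.53 ± 0.66 for RFLNA, 4.34 ± 0.97 for DDN and 3.38 ± 0.78 for NRSN1. MYH7 was 1.56 ± 0.33 for PB minus LDM and 1.43 ± 0.33 for HM minus LDM. For each of the 5 genes, as for MYH7, LDM was the lowest of the 4 cuts.

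Among the 3 higher cuts the order differed by gene, and few neighbours differed beyond their spread. For SBK2, PB came first, then TM and HM, with a TM minus PB of -0.84 ± 0.68 and a TM minus HM of 1.42 ± 0.69. For RFLNA, TM came first, with a TM minus PB of 1.36 ± 0.58 and a TM minus HM of 2.29 ± 0.60. The same differences were 0.55 ± 0.78 and 0.87 ± 0.78 for METTL21C, 0.14 ± 0.78 and 0.11 ± 0.78 for DDN, and 0.97 ± 0.67 and 1.07 ± 0.67 for NRSN1, all under 2 SE. By limma-voom they were -0.56 and -0.56 for METTL21C, -0.59 and -0.65 for DDN, and 0.0094 and -0.15 for NRSN1, while the TM minus PB of RFLNA was 0.41. The order of the 3 cuts is thus not settled for these genes. These values share the TM libraries with the choice and are descriptions.

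Pork belly and hamstring are the pair of cuts that the choice of genes did not use, and SBK2 was the only one of the 5 that differed between them in the test across all genes. SBK2 averaged 47.8 ± 47.6 CPM in PB and 11.2 ± 11.0 CPM in HM (SD, n = 10 each). Its log2 change, PB minus HM, was 2.26 ± 0.71 with a 95% interval of 0.87 to 3.65 and an adjusted p of 0.0154 (edgeR quasi-likelihood test, Benjamini-Hochberg over 11713 genes). In this pair 27.6% of all genes tested were called, 13.5% higher in PB and 14.1% lower, so that 1 call in 5 genes is no more than the background share. Of the PB libraries, 6 of 10 lay above the HM median, whereas 0 of 10 HM libraries lay above the PB median. The call held with each of the 40 libraries left out in turn, while the number of genes called lower in PB was 999 without HM4 and 1649 with it. The SBK2 call was lost with limma-voom (1.37, adjusted p = 0.221) and when the reads of the neighbouring kinase model were added to SBK2 (1.47, adjusted p = 0.0806).

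The other 4 genes did not pass the test between PB and HM. RFLNA averaged 29.5 ± 17.5 CPM in PB and 16.8 ± 12.6 CPM in HM, with a log2 change of 0.93 ± 0.58 (edgeR adjusted p = 0.231). METTL21C averaged 66.5 ± 83.0 CPM in PB and 57.2 ± 56.5 CPM in HM, with 0.32 ± 0.77 (edgeR adjusted p = 0.80). NRSN1 averaged 7.49 ± 6.44 CPM in PB and 7.62 ± 6.98 CPM in HM, with 0.10 ± 0.67 (edgeR adjusted p = 0.928). DDN averaged 9.38 ± 13.0 CPM in PB and 11.8 ± 20.5 CPM in HM, with -0.03 ± 0.78 (edgeR adjusted p = 0.981). The wide errors leave changes of more than 1 on the log2 scale inside the interval for each of these 4. MYH7 differed little in the same fit, by 0.13 ± 0.32 (edgeR adjusted p = 0.81).

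**Figure D2:**
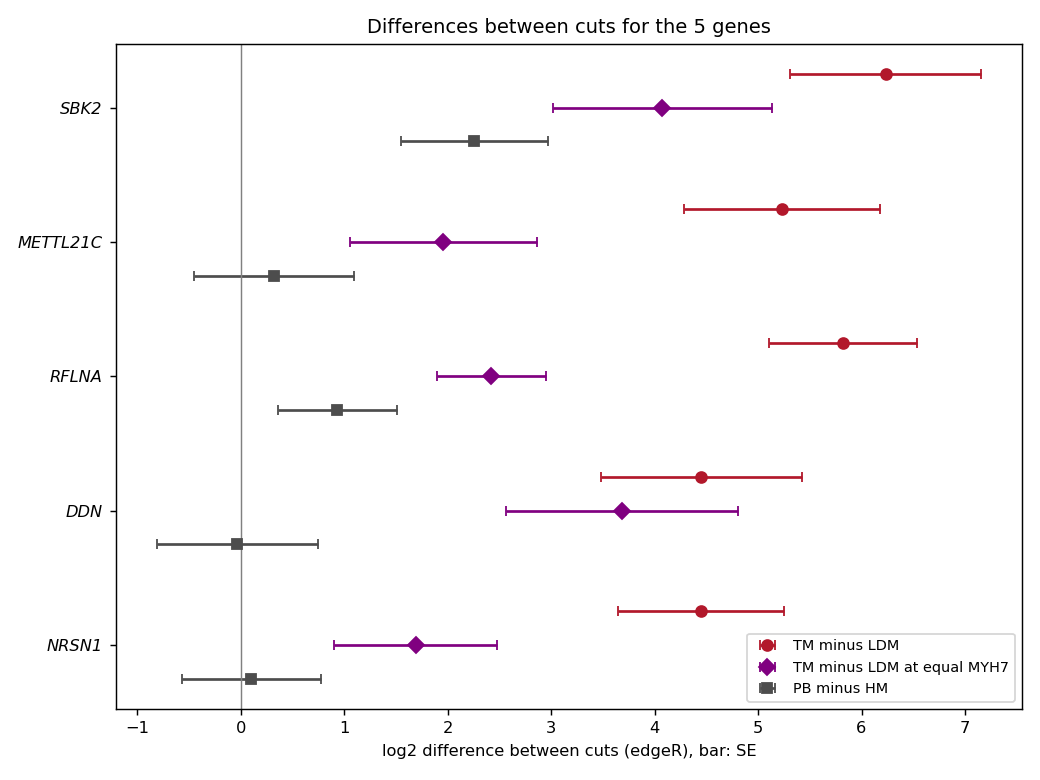
Log2 differences for the 5 genes from edgeR fits: TM minus LDM (circles), the same at equal MYH7 (diamonds) and PB minus HM (squares); bars are SE. SBK2 lies at 2.26 for PB minus HM, and the other 4 genes lie between -0.03 and 0.93.

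In a fit that pools the 4 cuts, all 5 genes varied between libraries more than nearly all other genes. Single cuts could differ: the log2 SD of SBK2 was 2.53 in TM but 0.35 in LDM. The biological coefficient of variation of the fit was 1.02 for SBK2, 1.11 for METTL21C, 0.863 for RFLNA, 1.21 for DDN and 1.01 for NRSN1, each above at least 98.2% of the genes tested, whose median was 0.299. The TM and LDM libraries in this fit also chose the genes, and the genes compared were not matched for level. The 5 genes also varied together. After each cut mean was subtracted, all 10 pairs among the 5 genes had a positive Pearson r over the 40 libraries, from 0.32 for SBK2 with METTL21C to 0.61 for METTL21C with NRSN1, with a median of 0.54. Within TM alone, METTL21C followed DDN with an r of 0.90 and NRSN1 with an r of 0.85 (10 libraries). SBK2 stood somewhat apart there, with an r of 0.28 with METTL21C and 0.77 with RFLNA. Within LDM, where counts were low, the pairs ran from -0.63 for SBK2 with NRSN1 to 0.67 for RFLNA with DDN. These points share library depth and dissection, and the values are descriptions.

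**Figure D3:**
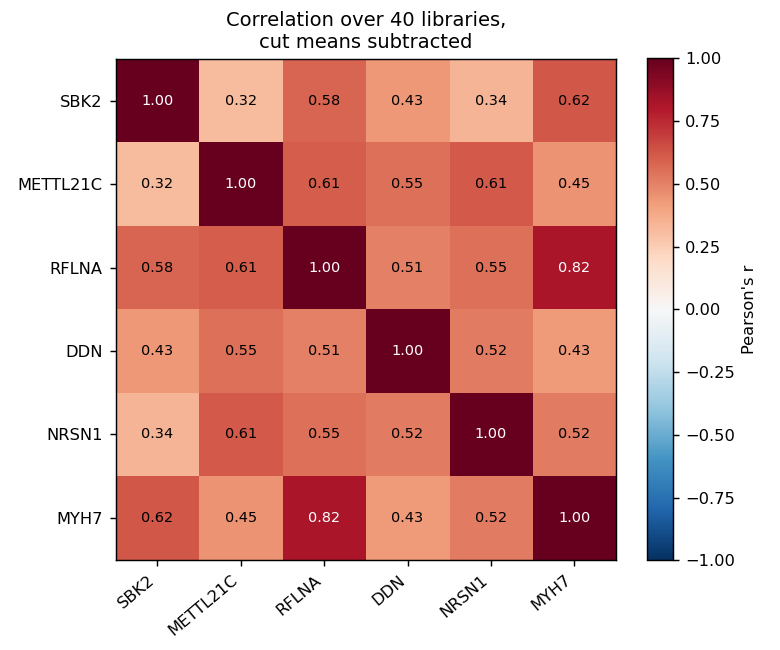
Pearson correlation among the 5 genes and MYH7 over 40 libraries after the mean of each cut was subtracted, as log2 CPM; the colour scale runs from -1 to 1. The highest value off the diagonal is 0.82, for RFLNA with MYH7, and the lowest is 0.32, for SBK2 with METTL21C.

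Libraries outside LDM with little MYH7 included some, but not all, of those with the 5 genes at LDM levels. MYH7 itself ran from 5692 to 71318 CPM in TM, from 12231 to 35291 CPM in PB, from 7830 to 41612 CPM in HM and from 4277 to 14273 CPM in LDM. The 6 libraries outside LDM that were at or below the highest LDM library by CPM of MYH7 were TM7, PB8, PB10, HM6, HM7 and HM9. At or below the highest LDM library were 3 of the 5 genes in TM7, 4 in HM9, 2 in HM7 and 1 in HM6, but 0 in PB8 and in PB10. PB8 had 15.7 CPM of SBK2 and 62.3 CPM of METTL21C. Its MYH7 level was 13980 CPM, against 14273 CPM in LDM10, which had 0.352 CPM of SBK2 and 4.51 CPM of METTL21C. The order depends on the scale. By the scaled log2 CPM of the fits, MYH7 stood at 14.08 in PB8, above the 14.00 of LDM10, whereas TM6, at 13.74, lay below LDM10. Of the 24 libraries with more CPM of MYH7 than any LDM library, 9 nevertheless had at least 1 of the 5 genes at or below the highest LDM library. They were TM1, TM3, TM4, TM8, PB1, PB4, PB9, HM1 and HM5. TM4, with 36280 CPM of MYH7, had 3, METTL21C, DDN and NRSN1, and TM8, PB1 and HM5 had 2 each.

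**Figure D4:**
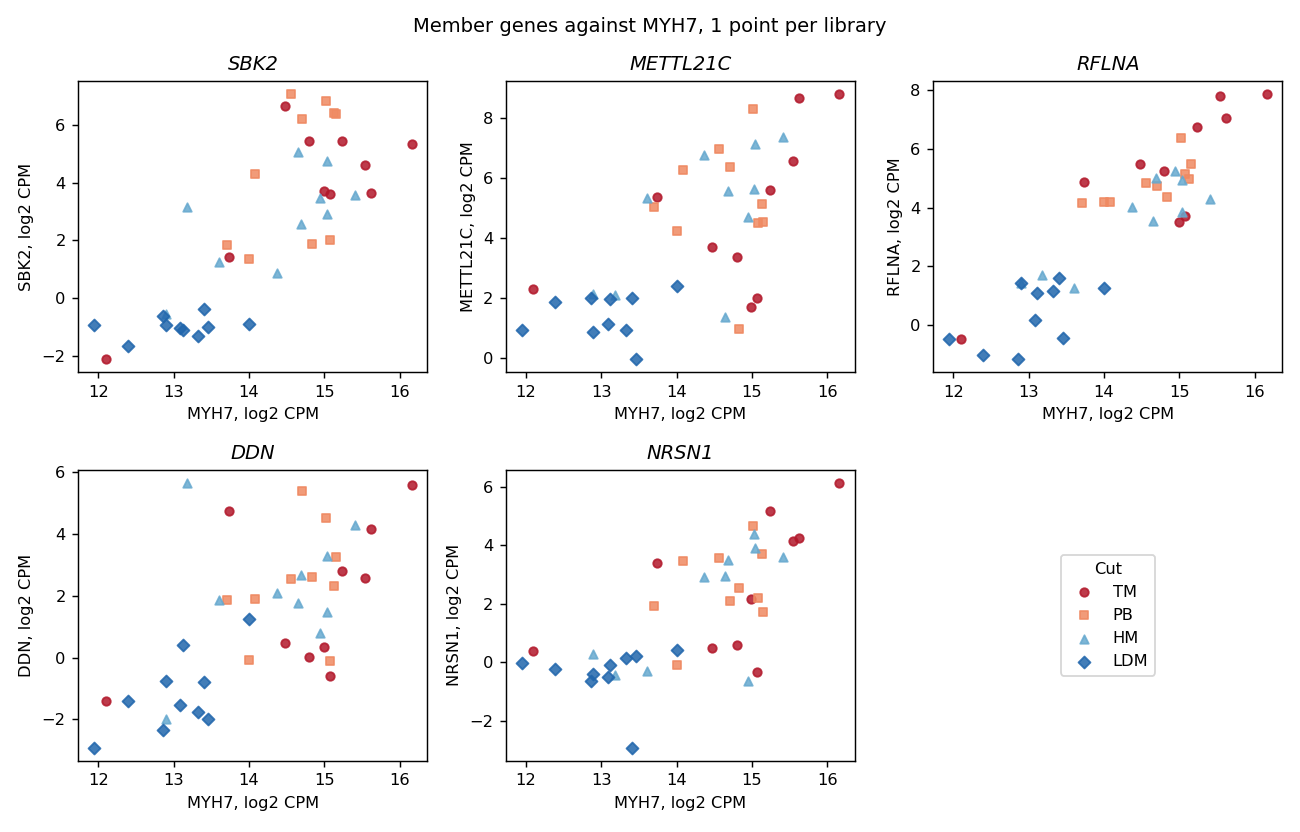
Log2 CPM of each of the 5 genes against log2 CPM of MYH7, 1 point per library, with cuts by colour and shape. RFLNA follows MYH7 most tightly (r = 0.82 with cut means subtracted), whereas DDN scatters widely (r = 0.43).

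Within cuts, 4 of the 5 genes rose with MYH7 in the edgeR fit. The slope, the log2 change for each doubling of MYH7 with the cut as a factor, does not use the difference between cut means. The TM and LDM libraries that chose the genes are in the fit, however. TM7 and HM9, with the least MYH7 of their cuts, were nearest to LDM over all genes. The slope is thus not fully independent of the choice. It was 1.61 ± 0.21 for RFLNA (95% interval 1.20 to 2.02, edgeR adjusted p = 1.01e-06), 1.37 ± 0.34 for METTL21C (adjusted p = 0.0037), 1.26 ± 0.28 for NRSN1 (adjusted p = 0.00158) and 1.19 ± 0.43 for SBK2 (adjusted p = 0.0453). DDN had 0.39 ± 0.37 (adjusted p = 0.485), although it passed by limma-voom, with 1.33 ± 0.42 (adjusted p = 0.0144). With the library number as a further factor, the edgeR slope of DDN also passed, at 1.91 ± 0.45 (adjusted p = 0.00637). Of the 11712 genes tested, 18.9% were called, 7.91% rising and 11.0% falling with MYH7, and the median slope was -0.01. The 4 genes were among only 22 of those genes with a slope above 1.

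**Figure D5:**
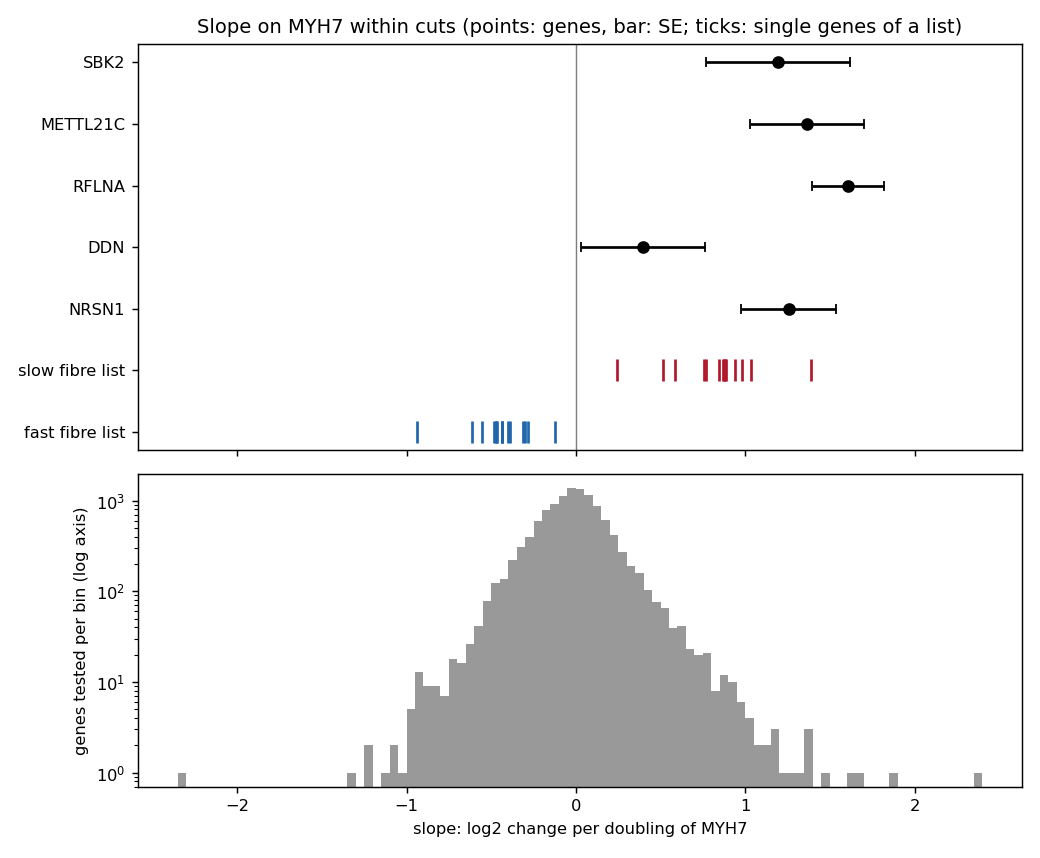
Slope on MYH7 within cuts, in log2 units per doubling of MYH7: the 5 genes as points with SE and the genes of the slow and fast fibre lists as ticks (top), and all 11712 genes tested as a histogram with a log axis (bottom). RFLNA lies at 1.61 and DDN at 0.39, and the slow fibre list has a median of 0.87.

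These slopes rested on single libraries to different degrees. With HM6, HM9, TM3 and TM7 left out, RFLNA still rose, while the slope was 1.11 for METTL21C (adjusted p = 0.104), 1.09 for NRSN1 (0.0575) and 0.84 for SBK2 (0.351), all by edgeR. The SBK2 call was also lost in 18 of the 40 fits that left out 1 library, with an adjusted p of up to 0.215 and a slope of 0.84 without TM7. Those libraries were TM2, TM3, TM6, TM7, PB1, PB2, PB3, PB5, PB8, PB10, HM3, HM7, HM9, LDM1, LDM4, LDM5, LDM7 and LDM9. TM7 also bore on the background: without it 1396 genes were called, against 2217 with it, and 486 rose, against 927. For DDN, the edgeR slope was 1.08 without HM6 (adjusted p = 0.0293), a library with 986 reads of DDN at a MYH7 of 12568 CPM. HM6 also had the highest summed level of 5 smooth muscle markers, 7428 CPM, against 1206 CPM in the next highest HM library, and the part of these in the DDN value was not tested.

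On the log scale, where a single high library weighs less, all 5 genes correlated with MYH7 within cuts. Pearson's r over 40 libraries with cut means subtracted was 0.82 for RFLNA, 0.62 for SBK2, 0.52 for NRSN1, 0.45 for METTL21C and 0.43 for DDN. Permuting libraries within cuts gave adjusted p-values over the 5 relations of 5e-05, 0.0007, 0.0043, 0.0151 and 0.0156, the first being the smallest that 100000 permutations can give. Spearman's rho was 0.76, 0.46, 0.52, 0.45 and 0.38 in the same order, with permutation p-values adjusted in the same way of 5e-05, 0.00738, 0.00445, 0.00874 and 0.0234. Without TM7 and LDM8, the libraries farthest from the median, r was 0.72 for RFLNA, 0.48 for SBK2, 0.52 for NRSN1, 0.41 for METTL21C and 0.29 for DDN. The relation of DDN was lost without TM7 (r = 0.32, permutation adjusted p = 0.0695) and without HM9 (r = 0.34, permutation adjusted p = 0.0735). For RFLNA, SBK2 and DDN r was above 0 in each of the 4 cuts. For METTL21C it was -0.02 in PB and for NRSN1 it was -0.04 in LDM.

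The difference between TM and LDM was smaller at equal MYH7, and its size depended on the setting. With MYH7 as a term in the fit, TM minus LDM was 4.07 ± 1.06 for SBK2, 3.69 ± 1.12 for DDN, 2.42 ± 0.53 for RFLNA, 1.96 ± 0.90 for METTL21C and 1.69 ± 0.79 for NRSN1 (log2, description only). The difference was thus smaller by 3.40 for RFLNA, 3.27 for METTL21C, 2.75 for NRSN1, 2.16 for SBK2 and 0.77 for DDN than without that term. On the scaled log2 CPM that the fit used, 2 TM libraries, TM6 and TM7, lay inside the LDM range of MYH7. The other TM libraries lay above that range, so these values lean on the slope being the same in both cuts. By limma-voom they were 2.36 ± 1.65 for SBK2, 1.14 ± 1.54 for DDN, 1.99 ± 0.75 for RFLNA, 1.43 ± 1.35 for METTL21C and 0.77 ± 1.21 for NRSN1. Over all other settings the lowest value was 2.36 for SBK2, 0.22 for DDN, 1.53 for RFLNA, 1.43 for METTL21C and 0.77 for NRSN1.

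The lists of fibre type genes give the scale of these slopes. All 14 tested slow fibre genes other than MYH7 rose with MYH7, with a median slope of 0.87. Without TM7 13 rose, and without HM6, HM9, TM3 and TM7 12 did. Among the 14 were TNNT1, the slow troponin T, at 0.87, MYL2, the slow regulatory light chain, at 0.88 and TPM3, slow tropomyosin, at 0.77. Of the 16 fast fibre genes 14 fell, with a median of -0.44, among them MYL1, the fast essential light chain, at -0.55 and TNNT3, the fast troponin T, at -0.47. Without HM6 16 fell, without HM9 13 did, and without HM6, HM9, TM3 and TM7 11 did. None of the 15 tested slow fibre genes was called between PB and HM, where their median was 0.03 against -0.05 over all genes tested. MYBPC1 lay near the threshold, at 0.39 (edgeR adjusted p = 0.0573). It was called in 17 of the 40 fits that left out 1 library, TM3, TM7 and HM9 among those libraries, and by limma-voom (adjusted p = 0.0257). Each of the 5 genes correlated positively with all 15 slow fibre genes within cuts, with a median r of 0.76 for RFLNA, 0.58 for SBK2, 0.49 for NRSN1, 0.47 for METTL21C and 0.46 for DDN. All 16 fast fibre genes had a negative r with each of them.

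The genes whose levels were most like each of the 5 were found by Pearson's r of log2 CPM. For RFLNA they were MYL2, TNNT1 and MYOZ2, all 3 in the slow fibre list, both over the 40 libraries (r of 0.93, 0.91 and 0.90) and with cut means subtracted (0.86, 0.83 and 0.82). For SBK2 they were MYL6, CLIP4 and TPM3 over the 40 libraries (0.85, 0.84 and 0.84) and PGM5, PITPNM2 and HABP4 within cuts (0.82, 0.74 and 0.74). For METTL21C they were VPS13D, MRPS6 and ASB18 over the 40 libraries (0.84, 0.82 and 0.81) and VPS13D, RNF207 and SLC41A1 within cuts (0.74, 0.71 and 0.71). DDN was most like S100A1, SLC22A3 and MRPS6 (0.83, 0.81 and 0.79) and within cuts SLC22A3, S100A1 and IDH1 (0.75, 0.73 and 0.70). NRSN1 was most like MRPS6, MYL2 and MLXIPL (0.83, 0.80 and 0.80) and within cuts MRPS6, LAPTM4B and CUX2 (0.76, 0.72 and 0.66). MRPS6, a protein of the mitochondrial ribosome, was thus near METTL21C, DDN and NRSN1 over the 40 libraries. There r also carries the difference between cuts that chose the genes. With cut means subtracted, MRPS6 was among the 3 nearest for NRSN1 only. Among all genes tested in order of r with MYH7 within cuts, RFLNA stood at place 17, SBK2 at 189, NRSN1 at 485, METTL21C at 812 and DDN at 952.

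The close relatives of the 5 genes that could be tested had TM minus LDM values from -0.13 to 0.79 on the log2 scale. SBK1, the paralog of SBK2, averaged 34.2 CPM in TM, 16.1 in PB, 31.2 in HM and 27.9 in LDM. It fell in PB against HM by 0.83 on the log2 scale (edgeR adjusted p = 0.0194), the opposite direction to SBK2, a call lost without HM7 (-0.62, adjusted p = 0.0917). Its TM minus LDM was 0.16. METTL21A, EEF1AKMT3, VCPKMT and CAMKMT, the methyltransferases related to METTL21C, lay between 0.784 and 8.87 CPM on average in all cuts. None of them passed either test, and their TM minus LDM ran from -0.13 to 0.16. HSPA8 and AARS1, reported substrates of METTL21C in mice, also passed neither test.

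RFLNB, the paralog of RFLNA, was scarce and fell in PB against HM. It averaged 1.88 CPM in PB and 5.10 CPM in HM, a log2 change of -1.32 (edgeR adjusted p = 4.97e-05), and it rose with MYH7 with a slope of 0.36 (adjusted p = 0.00631), a call lost without TM7 (0.26, adjusted p = 0.116). The filamins that refilins bind were more abundant. FLNA averaged 186 ± 56.5 CPM in PB and 574 ± 710 CPM in HM (SD, n = 10 each), with -1.31 (edgeR adjusted p = 0.00115). HM6 had 2560 CPM of FLNA, and without it the HM mean was 354 CPM and the change -0.76 (edgeR adjusted p = 0.0115). FLNC, the muscle filamin, averaged 28088 CPM in TM, 22466 in PB, 42158 in HM and 32825 in LDM. Its PB minus HM of -0.73 did not pass by edgeR (adjusted p = 0.114) but did by limma-voom (-1.21, adjusted p = 0.0023). FBLIM1, a filamin-binding protein of the same list, fell like FLNA in PB against HM, by 0.96 on the log2 scale (edgeR adjusted p = 0.000986). RFLNA lay at 0.93 without passing the test. Smooth muscle markers moved the same way in this pair: 4 of 5 fell, against 14.1% of all genes tested, among them ACTA2 at -1.67. Their summed level had a median of 440 CPM in PB (173 to 572) and of 742 CPM in HM (505 to 7428), where HM6 was the highest. Without HM6, 3 of the 5 fell, and ACTA2 stood at -0.96. Their part in the filamin result was not tested.

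Of 4 tested partners of dendrin, 2 rose and 1 fell in PB against HM, where 13.5% of all genes tested rose and 14.1% fell. CD2AP, an adaptor of the podocyte slit diaphragm, rose by 0.88 on the log2 scale (edgeR adjusted p = 0.00829) and SYNPO, synaptopodin, by 0.52 (0.0033), while ACTN4 fell by 0.78 (0.00021). SYNPO2 had a slope of 0.58 on MYH7 (edgeR adjusted p = 0.0271), a call lost without TM7 (adjusted p = 0.0767) and without HM2 (adjusted p = 0.0565). MAGI2, NPHS1 and WWC1 were too low to test. NRSN2, the paralog of NRSN1, averaged 0.00647 CPM in TM and 0 CPM in PB, HM and LDM.

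DDN and NRSN1 are best known outside muscle, and most markers of those other cells were at low levels. Of 11 neuron markers that the table holds, 3 passed the filter, and the summed level of all 11 ran from 3.79 to 17.8 CPM in TM, 4.46 to 13.5 in PB, 12.6 to 24.2 in HM and 5.35 to 17.4 in LDM. SNAP25 and TUBB3 were at or near 0, with means of at most 0.101 CPM in any cut, and none of the 3 tested markers had a slope on MYH7 that passed. UCHL1, a neuronal deubiquitinase, fell in PB against HM by 1.38 (edgeR adjusted p = 0.000658). Within cuts the 3 had an r with NRSN1 between -0.21 and -0.01 and with DDN between 0.04 and 0.05. The podocyte marker NPHS1 averaged 0.538 CPM in TM, 0.157 in PB, 0.439 in HM and 0.261 in LDM. Heart markers NPPB, NKX2-5 and GATA4 averaged at most 0.0343 CPM in any cut. SYNPO of the podocyte list, which skeletal muscle also expresses, averaged 1860 CPM in TM, 1711 in PB, 1301 in HM and 1757 in LDM. SLN of the heart list, likewise expressed by skeletal muscle, averaged 1043 CPM in TM, 1050 in PB, 1165 in HM and 2260 in LDM.

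Endothelial markers moved with SBK2 within cuts. All 7 had a positive r with it, with a median of 0.58, against 0.36 with RFLNA, 0.30 with DDN, 0.22 with METTL21C and 0.19 with NRSN1. Of the 7, 3 rose with MYH7, against 7.91% of all genes tested, with PECAM1 at 0.31, CDH5 at 0.32 and FLT1 at 0.33. The PECAM1 call was lost without TM7 (0.23, edgeR adjusted p = 0.16) and without HM9 (0.26, edgeR adjusted p = 0.0541). In PB against HM 3 fell, against 14.1% of all genes tested, PECAM1 by 0.84, CDH5 by 0.88 and VWF by 0.62, the opposite direction to SBK2. Their summed level ran from 398 to 939 CPM in TM, 287 to 585 in PB, 404 to 1224 in HM and 341 to 461 in LDM. Their part in the SBK2 result was not tested.

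Of 14 tested regulators of slow fibre genes 2 rose and 2 fell with MYH7, near the shares of all genes tested (7.91% and 11.0%), so the count says nothing particular of regulators. ESRRB, an estrogen-related receptor, rose with a slope of 0.59 (edgeR adjusted p = 0.000853, but 0.0563 without HM6, HM9, TM3 and TM7) and MEF2D, a muscle transcription factor, with 0.31 (0.000384). SOX6, a repressor of slow fibre genes in mice, fell with a slope of -0.58 (edgeR adjusted p = 1.03e-06), and TEAD1 with -0.33 (0.00208). Within cuts, r with SOX6 was -0.67 for RFLNA, -0.49 for SBK2, -0.45 for NRSN1, -0.43 for DDN and -0.36 for METTL21C, and r with ESRRB was 0.73, 0.47, 0.39, 0.46 and 0.56 in the same order. Between PB and HM the direction for SOX6 was not the reverse of that for SBK2: SOX6 averaged 29.1 CPM in PB and 11.3 CPM in HM, a log2 change of 1.53 (edgeR adjusted p = 4.49e-05), in the pair where SBK2 was also higher in PB.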

How the data were processed

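RNA from 40 muscle samples was sequenced with a KAPA stranded kit, per the labels' protocols. Tools named in the submitters' processing notes are HTSeq 0.9.1, HISAT2 2.0.5 and cutadapt 1.15, and the build is Sscrofa11.1. No source used here gives the strand setting used in counting, so overlapping or antisense genes may share reads. The authors deposited 1 table with whole-number read counts and FPKM per gene and library, per the file headers. FPKM equalled the CPM per kilobase for 100% of nonzero counts (tolerance 0.001) and is used only to compare levels between genes.

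Samples were grouped by title. CPM is the count over the library total, and log2 CPM uses TMM scaling with a prior count of 2. Differences and slopes were tested in R 4.3.3 with edgeR 4.0.16 (TMM, filterByExpr by cut, robust quasi-likelihood fit of 40 libraries with the cut as factor). P-values were adjusted by Benjamini-Hochberg across every tested gene, and calls were made under 0.05. The slope fit adds log2 CPM of MYH7. Scripts were tested on simulated data. Correlations with MYH7 used 100000 permutations within cuts. DESeq2 1.42.0 and limma-voom (limma 3.58.1) were alternatives, beside other scalings and filters, the library number as a block, 7 other slow fibre genes in place of MYH7, and libraries left out. The sum of SBK2 and the neighbouring kinase model, and the listed genes with libraries left out, were added after the data were seen.

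The 5 genes and the gene lists were chosen with earlier results of these data known. Genes named are the 5, MYH7, the 3 next in TM over LDM, the 3 most alike per gene, the listed relatives and partners, and up to 4 of each other list by smallest adjusted p, beside defining markers. Some genes that this rule names are not reported here. No 2 libraries agreed within sampling noise: chi-square per gene was at least 29.8 within cuts (genes with 20 or more counts).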

Additional observations from a re-analysis of the deposited data

Results flagged for a closer look

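In 2 of the 24 sets of 10 libraries looked at, for the 5 genes and MYH7 in 4 cuts on the log2 CPM scale, 1 library lay far from the rest of its cut, by a gap to its nearest neighbour that was large against the range of the set (Dixon's test at the 95% level). RFLNA in TM had 0.762 CPM in TM7, against 12.7 CPM in the next lowest TM library. TM7 also had the least MYH7 of the TM libraries, 5692 CPM, and was nearest to LDM over all genes. NRSN1 in LDM had a level of 0 in LDM4, the only LDM library with no read of it. Chance alone flags about 1 in 20 such sets.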

How the results depend on the processing

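Of 463 values of the 5 genes under other settings, 445 kept their sign, and 434 kept both their sign and, where tested, their call. Of 1800 values with 1 library left out, 1770 kept their sign and 1749 both. With RLE or upper-quartile scaling, mitochondrial genes out before scaling, DESeq2 and a filter of 1 CPM, the calls of the 5 genes between PB and HM and for the slope on MYH7 were those of the report. The PB minus HM change of SBK2 lost its call with limma-voom (1.37) and with the neighbouring kinase model added (1.47). Sign turns fell on PB minus HM, without a call, and on the untested TM minus PB and TM minus HM. TM minus PB was -0.56 for METTL21C and -0.59 for DDN with limma-voom, and TM minus HM was -0.56 for METTL21C, -0.65 for DDN and -0.15 for NRSN1. PB minus HM of METTL21C was -0.0025 with limma-voom. For NRSN1 it was -0.16 with limma-voom and -0.17 without HM6, HM9, TM3 and TM7. For DDN it was 0.0034 with RLE scaling, 0.065 without mitochondrial genes, 0.0062 with DESeq2, 0.0077 with no filter, 0.11 without PB1, 0.66 without those 4 libraries and 0.012 with PB and HM alone.

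The slope of SBK2 lost its call with no filter (1.17) and without PB1 (1.10). Without HM6, HM9, TM3 and TM7 it was 0.84, that of METTL21C 1.11 and that of NRSN1 1.09, all without a call, and the correlation with MYH7 was 0.26 for METTL21C and 0.37 for DDN, also without a call. With limma-voom DDN gained a call (1.33), and its TM minus LDM at equal MYH7 was 1.14. Over all genes, the slope on MYH7 called 3749 with limma-voom, 1728 higher and 2021 lower, and 1126 without those 4 libraries, 450 higher and 676 lower. The cause of these changes was not tested.

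With each library left out in turn, TM minus PB ran from -0.070 to 1.20 for METTL21C and from -0.54 to 0.77 for DDN, and TM minus HM from -0.57 to 0.96 for DDN. PB minus HM ran from -0.33 to 0.64 for METTL21C, from -0.66 to 0.87 for DDN and from -0.27 to 0.41 for NRSN1. The slope ran from 0.84 to 1.52 for SBK2 and from 0.082 to 1.08 for DDN, and the correlation of DDN from 0.32 to 0.55. Genes lower in PB than in HM numbered 999 (without HM4) to 1901. Genes with a slope numbered 1396 (without TM7) to 2646, and those with a rising slope 486 (without TM7) to 1215.

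Library numbers were checked as pairs: 52 of 60 same-number pairs had a correlation of their deviations over 0.1, the lowest was -0.13, and 24 of 40 libraries correlated best with one of their own number. The median correlation was 0.24 for same-number pairs and -0.03 for pairs of other numbers, so libraries of a number share some variation. Because not every same-number pair was over 0.1, the rule for pairing was not met, and the replicate block stays an alternative. The tests without the block take the libraries as independent and leave that shared variation out of account. With the block, 1127 genes had a slope on MYH7, 477 rising and 650 falling, DDN had a slope of 1.91 (called) and 0.22 ± 1.11 for TM minus LDM at equal MYH7, and its PB minus HM was 0.23, TM minus PB -0.39 and TM minus HM -0.16. The block changed no other call of the 5 genes. Counts of 0 to 28 for DDN and 0 to 18 for NRSN1 in LDM limit the precision of every change against LDM.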
